A study of Homo sapiens with 4 samples.

Results

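The genes described here are 60 interferon-induced effector genes, that is, genes whose protein products act against viruses or carry out other tasks of the interferon response. They were taken from a fixed list of gene symbols, and a member counted as listed when the deposited RIP-seq table held at least 1 YTHDF1 window under its symbol. Of the 60 members, 49 were listed and 11 were not, out of 7550 gene identifiers and 6674 protein-coding symbols in the whole table. The study asked which RNAs YTHDF1 binds when gastric cancer cells respond to interferon-γ (IFN-γ). SNU638, an established human gastric cancer cell line, was made to overexpress YTHDF1, kept without serum for 24 h and then exposed to IFN-γ at 10 ng/ml over a further 24 h. RNA immunoprecipitation (RIP) sequencing compared 2 IP-YTHDF1 libraries with 2 Input libraries, both from cells with the same overexpression and the same IFN-γ treatment. All 4 libraries came from treated cells with added YTHDF1, so a window describes RNA recovered with the overexpressed protein during IFN-γ treatment, and no effect of the treatment can be read from it.

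YTHDF1 is a cytoplasmic reader protein that recognises N6-methyladenosine (m6A) in RNA and acts on the translation and decay of the RNA it binds. Interferons act through receptors and JAK kinases on transcription factors that enter the nucleus and switch on effector genes. IFN-γ acts mainly through the gamma-activated site (GAS), and type I interferons through the interferon-stimulated response element (ISRE). The effectors include sensors and enzymes for double-stranded RNA, GTPases that attack intracellular microbes, ubiquitin-like ISG15 and chemokines that draw lymphocytes.

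Each row of the authors' deposited table is a 50 bp window that carries a signal value with its p-value and q-value for IP-YTHDF1 over Input. What scale these signal values have is not given in the sources used here, and they serve below only to order windows within the table. The table has 1 value per window for the whole experiment, so no spread between replicates, no depth per library and no error of a signal value can be given. No more than 9 windows are listed for any gene identifier, and genes with 9 may be incomplete. In members with 9, the windows are numbered by rising coordinate, so windows at higher coordinates may be missing. The q-values of some, such as APOL2, PARP14 and DTX3L, require unlisted windows with smaller p-values than some of those listed. For genes with 9 windows, the strongest window and the positions below hold only for the listed windows. Of the cell type markers looked up, 4 of 5 epithelial genes, 1 of 5 leukocyte genes (ITGAM, with 1 window), 0 of 5 fibroblast genes and 0 of 3 endothelial genes were listed, and the epithelial marker CDH1 was not among them. A listed window is not an expression level, and the label of the line cannot be checked further here.

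A window was listed for 49 of the 60 effector genes (81.7%), against 31.6% of other protein-coding genes (6321 of 19996). Counting only windows with a deposited q-value of at most 0.001, 36 members (60%) remained, against 21.1% of other genes (4212 of 19996). With a signal value of at least 2, there were 30 members (50%), against 22% of other genes (4390 of 19996). All 3 shares of the effector genes were above those of the other coding genes, with no test because the members were chosen with earlier results of these data known. The other genes were counted whether or not SNU638 cells express them. The table gives no RNA level, so the shares are not corrected for it.

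**Figure D1:**
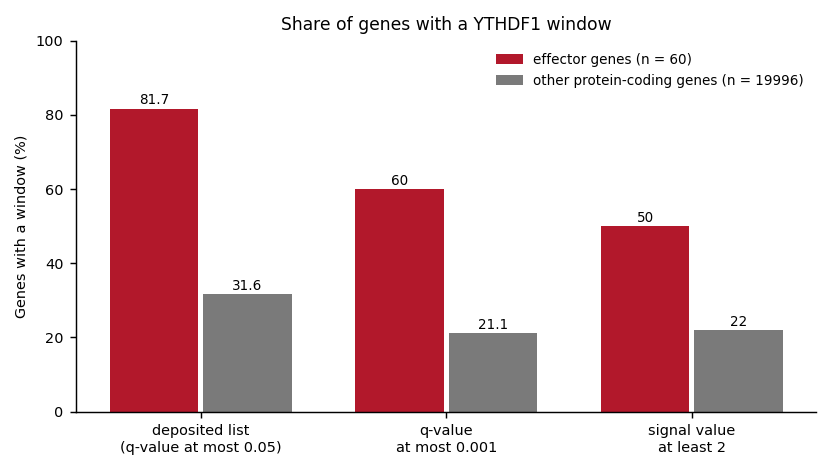
Share of genes with at least 1 YTHDF1 window (y axis, percent) for the 60 effector genes and the 19996 other protein-coding genes, for the deposited list and under 2 stricter limits (x axis). The effector bars stand at 81.7%, 60% and 50%, each above the bar of the other genes at 31.6%, 21.1% and 22%.

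The signal values of the listed members did not stand above those of other listed genes. The strongest window per gene had a median signal value of 2.08 in the 49 members and 2.23 in 6625 other listed coding genes. From the 25th to the 75th percentile it ran from 1.89 to 2.43 in members and from 1.94 to 2.56 in the others, so the ranges overlapped widely. Of the 49 members, 19 (38.78%) lay above the median of the other genes, as did 49.07% of the other genes themselves, and 2 members, IFI44 and DDX58, reached the top 10% of the other genes, at 2.93 and above. Over all windows the median was 1.60 for the 253 windows of members and 1.83 for 24501 other windows. Values under 1 made up 29 of the member windows (11.46%) and 2.718% of the others.

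The listed members had a median of 5 windows per gene against 3 in other listed genes. A single window was listed for 10 members (20.41%) against 29.04% of other genes, and 9 windows per identifier were reached by 11 members (22.45%) against 12.69%. The number of windows tested in a gene was estimated from q-values, p-values and the rank among listed windows. It had a median of 43 in members and 35 in other genes. In genes with 9 windows the rank misses unlisted windows, so the estimate can be too low. Among genes with 8 or fewer listed windows, the listed part of the tested windows had a median of 10.56% in 38 members and 8.333% in 5761 other genes. When touching windows were joined, the 253 windows formed 169 regions.

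**Figure D2:**
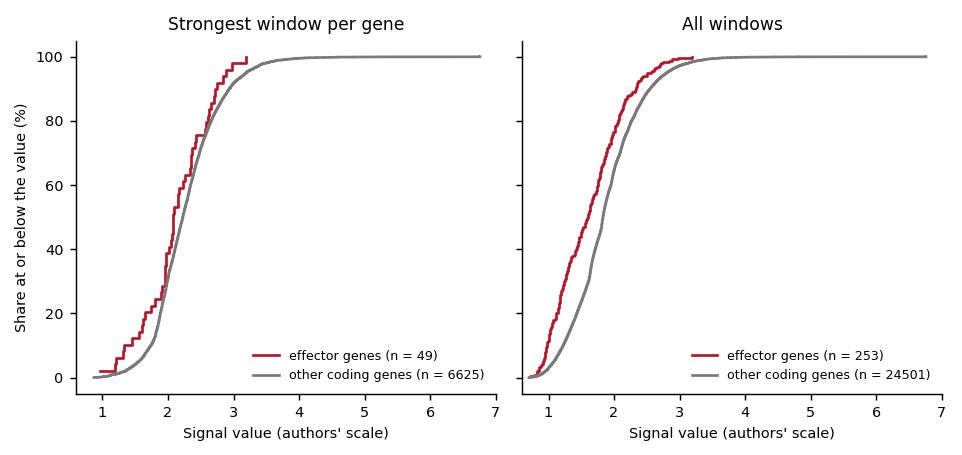
Cumulative share (y axis, percent) of genes by their strongest window (left) and of all windows (right) at or below each signal value of the authors' table (x axis), for effector genes and other listed coding genes. The effector curve lies to the left of the other curve over most of the range, with medians of 2.08 against 2.23 on the left and 1.60 against 1.83 on the right.

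The position of the windows relative to the start of the gene was compared per gene and per window. A window lay within 100 bp of the 5′ end of the RefSeq gene in 19 of 49 members (38.8%) and in 25.2% of 6321 other listed genes. Within 500 bp the shares were 25 of 49 (51%) and 43.8%. Members had more windows each, and counted per window the difference was smaller or turned. Of the member windows, 10.3% lay within 100 bp of the 5′ end, against 8.84% of other windows, and 20.6% within 500 bp, against 24.7%. The strongest window lay within 100 bp in 20.4% of members and 13.6% of other genes, and within 500 bp in 32.7% and 31.2%. Among the 10 members with a single window, 5 had it within 100 bp of the 5′ end, namely SAMHD1, IFITM1, IFI44L, SP100 and SAMD9L, against 14.9% of 1834 other genes with a single window. At the 3′ end, a window within 100 bp was found for 1 member (2.04%) and 1.80% of other genes. Both distances were chosen after the values were seen. Positions within exons, introns and untranslated regions were not analysed here.

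Of the listed members, 35 had a start site in the RefSeq promoter table, with 50 promoters in all. In 13 of these 35, at 14 start sites, a listed window overlapped the first 50 transcribed bases. OAS2, GBP2 and IDO1 also had a window over the first 50 bases of the RefSeq gene but are not among the 13. The same share was not counted for other coding genes. From 150 bases before to 30 bases after the start, 7 of the 14 sites held an ISRE core or a GAS. The other 7 held neither, namely those of DDX58, LAP3, SAMD9L, SAMHD1, SOD2 and SP100 and the first of 2 start sites of RSAD2. The sequences below are 6 of the 7 that hold a motif, chosen for it, and are shown so that the YTHDF1 window can be seen beside the elements through which interferons act. They are RefSeq sequences of GRCh38.p14, written 5′ to 3′, with capitals for the core of the ISRE (GAAA, any 2 bases, GAAA, or on the other strand TTTC, any 2 bases, TTTC) and for the GAS (TTCNNNGAA, the same on both strands).
IFIT1 (chr10:89392473-89392652, plus strand): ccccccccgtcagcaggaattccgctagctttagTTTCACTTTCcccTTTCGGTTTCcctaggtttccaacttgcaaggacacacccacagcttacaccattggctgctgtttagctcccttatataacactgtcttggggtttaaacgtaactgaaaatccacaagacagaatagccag
IFI44L (chr1:78620298-78620477, plus strand): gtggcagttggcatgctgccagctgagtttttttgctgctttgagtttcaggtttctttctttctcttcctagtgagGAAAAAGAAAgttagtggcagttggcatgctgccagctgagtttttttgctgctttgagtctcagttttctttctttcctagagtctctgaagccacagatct
IFITM1 (chr11:313890-314069, plus strand): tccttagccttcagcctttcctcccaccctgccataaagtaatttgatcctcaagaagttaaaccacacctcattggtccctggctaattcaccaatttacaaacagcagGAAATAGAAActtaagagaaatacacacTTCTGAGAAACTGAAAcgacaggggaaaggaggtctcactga
DTX3L (chr3:122564188-122564367, plus strand): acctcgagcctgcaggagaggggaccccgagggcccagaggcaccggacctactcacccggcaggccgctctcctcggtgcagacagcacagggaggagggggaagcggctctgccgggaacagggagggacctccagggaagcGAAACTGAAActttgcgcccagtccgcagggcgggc
PARP14 (chr3:122680689-122680868, plus strand): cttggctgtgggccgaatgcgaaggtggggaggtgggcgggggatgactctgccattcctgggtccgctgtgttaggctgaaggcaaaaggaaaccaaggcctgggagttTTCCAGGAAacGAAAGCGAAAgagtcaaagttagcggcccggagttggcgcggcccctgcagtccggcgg
ICAM1 (chr19:10270970-10271149, plus strand): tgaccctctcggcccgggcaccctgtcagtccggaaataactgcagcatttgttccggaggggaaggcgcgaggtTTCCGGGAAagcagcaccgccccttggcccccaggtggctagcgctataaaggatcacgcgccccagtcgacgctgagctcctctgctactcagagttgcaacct
Counting the first transcribed base as 1, the listed window ran from -26 to 24 in IFIT1, from 26 to 75 in IFI44L and from 18 to 67 in IFITM1. It ran from 2 to 51 in both DTX3L and PARP14 and from 25 to 74 in ICAM1. In IFITM1 the GAS and the second ISRE core overlap, so that their capitals form 1 run. In DTX3L and in the second core of IFITM1, the ISRE core spans the start site itself.

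The same motifs were counted in the RefSeq promoters, from 250 bases before to 50 after each start. Of the 60 members, 46 had a promoter in the reference. The ISRE core was found on either strand in 30 of the 46 (65.2%) and in 3.98% of 15797 other coding genes, and the GAS in 12 (26.1%) and 8.93%. Counted per promoter, the ISRE core was in 53.1% of member promoters and 3.02% of the others. The ISRE core was in 23 of 35 listed members (65.7%) and in 7 of 11 unlisted ones (63.6%). The GAS was in 7 of 35 listed members (20%) and in 5 of 11 unlisted ones (45.5%), and either motif in 71.4% and 90.9%. These differences were not tested. The members were chosen as interferon-induced genes, so their higher motif shares against other genes follow in part from that choice. A match of these letters is a description and does not show a bound factor.

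**Figure D3:**
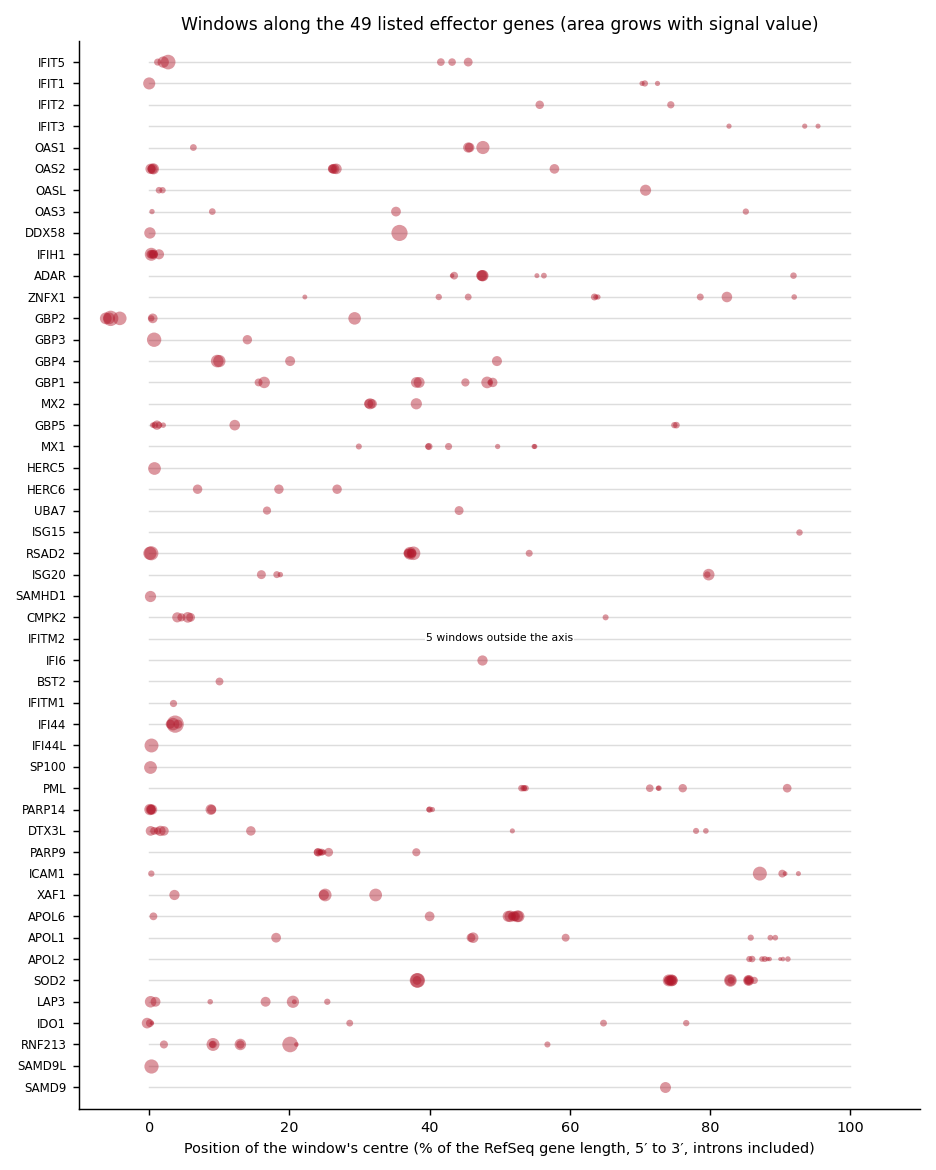
Position of each window's centre along its RefSeq gene (x axis, percent of gene length from the 5′ to the 3′ end, introns included) for the 49 listed members, with point area growing with the signal value. Many genes, among them IFI44L, SP100, SAMHD1 and SAMD9L, have a window close to 0%, GBP2 has windows upstream of 0%, and the 5 IFITM2 windows fall outside the gene.

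The IFIT proteins bind foreign RNA, mainly by its 5′ end. All 4 were listed, with 15 windows and a median strongest signal value of 1.895. IFIT5 (ENSG00000152778) was the strongest, with 6 windows between signal values of 1.31 and 2.71. Its strongest window, chr10:89414719-89414768 on the plus strand, had a deposited q-value of 1.16e-09 and lay 151 bp from the 5′ end, next to windows of 2.09 and 1.31. IFIT1 had 4 windows. The one at its start site, chr10:89392597-89392646, had a signal value of 2.23 (q = 7.16e-05), and the other 3, at 9724 bp or more from the 5′ end, had values of 0.96, 1.16 and 0.96. A window of LIPA on the opposite strand overlapped the middle one of these. IFIT2 had 2 windows with a strongest value of 1.56. IFIT3 had the weakest strongest window of all listed members, and its 3 windows had values of 0.96, 0.96 and 0.93. Only 0.1% of other listed genes lay below that.

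Double-stranded RNA is read by OAS1, OAS2 and OAS3, which make the second messenger 2′-5′ oligoadenylate, and by RIG-I and MDA5, encoded by DDX58 and IFIH1. All 4 genes of the OAS family, OASL included, were listed, with strongest values between 1.80 and 2.43. OAS1 (ENSG00000089127) led them with 4 windows of 1.25, 1.88, 1.78 and 2.43, the last at chr12:112919434-112919483 with a q-value of 2.36e-11. OAS2 had 9 windows with a strongest value of 2.06, OASL had 3 with 2.05, and OAS3 had 4 with 1.80. Among the sensors, DDX58 (ENSG00000107201, minus strand) had the second strongest window of all members. That window, chr9:32500853-32500902, had a signal value of 2.98 (q = 9.33e-14), above 91.1% of other listed genes, and a further window of 2.10 lay 44 bp from the 5′ end. IFIH1 had 6 windows with a strongest value of 2.41. ADAR, which edits double-stranded RNA, had 8 with 2.08, and the helicase-like sensor ZNFX1 had 9 with 1.95. EIF2AK2, which encodes the RNA-activated kinase PKR, was not listed.

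The GTPases of the response were all listed, 7 of 7, with 40 windows and a median strongest value of 2.16. The guanylate-binding proteins act on intracellular bacteria and parasites, and the MX proteins block viral replication. GBP2 (ENSG00000162645, minus strand) was the strongest of them, with 7 windows from 1.15 to 2.84. Its strongest window, chr1:89127183-89127232, had a q-value of 1.50e-08 and lay 1069 bp upstream of the RefSeq gene. The other 3 windows outside the gene lay 819, 1119 and 1219 bp upstream. Inside the gene the strongest GBP2 window had a value of 2.32. GBP3 had 2 windows, GBP4 had 4, GBP1 had 8 and GBP5 had 8, with strongest values of 2.65, 2.33, 2.16 and 1.96. MX2 had 4 windows with a strongest value of 2.07. MX1 stood lower, with 7 windows between 0.95 and 1.32, so that its strongest value exceeded 1.7% of other listed genes. The GBP genes have related sequences, and how reads shared between them were counted is not given in the sources used here.

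ISG15 is a ubiquitin-like protein that is attached to newly made proteins, with UBA7 as the activating enzyme and HERC5 as the main ligase. Each of the 4 genes was listed, with only 7 windows in all. HERC5 (ENSG00000138646) had 1 window, chr4:88457420-88457469, with a signal value of 2.35 (q = 0.001112). ISG15 itself had 1 window of 1.19 with a q-value of 0.02034, above 0.9% of other listed genes. UBA7 had 2 windows with a strongest value of 1.65. The 3 windows of HERC6 all had the signal value 1.74 and the q-value 0.02121 although each lay more than 1000 bp from the next. Such sets of equal windows more than 1000 bp apart occurred 4 times in the 49 listed members (2 in XAF1, 1 in HERC6, 1 in IDO1). They occurred 275 times in 6625 other listed genes, and their origin was not tested.

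RSAD2, which encodes viperin, an enzyme that makes a chain-terminating nucleotide, led the nuclease and nucleotide enzymes, all 4 of which were listed. RSAD2 (ENSG00000134321) had 9 windows with signal values from 1.29 to 2.61. They lay in 3 regions. The first held windows of 2.44 and 2.61, beginning 22 bp from the 5′ end, and the strongest, chr2:6865957-6866006, had a q-value of 3.68e-07. The second was 300 bp long, from 6877807 to 6878106, with values of 1.57, 1.86, 2.36, 1.63, 1.60 and 2.51. Its first window covered bases 31 to 80 from the second RSAD2 start site used above, at 6877777. The third was a single window of 1.29. ISG20, an RNA exonuclease, had 5 windows with a strongest value of 2.15. SAMHD1, which breaks down deoxynucleotides, had 1 window of 2.07, and the nucleotide kinase CMPK2, a neighbour of RSAD2 in the genome, had 5 with 1.97.

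Of the 6 membrane proteins, which hinder viral entry or release or sit on mitochondria, 4 were listed with 8 windows. IFITM2 (ENSG00000185201) had the highest value, 2.75, at chr11:314032-314081 with a q-value of 2.64e-10. However, all 5 windows given to IFITM2, with values of 2.75, 1.30, 1.98, 0.85 and 1.46, lay 6216 bp or more from the 5′ end of IFITM2 in RefSeq and outside that gene. They lay at the IFITM1 gene, and the first 2 overlapped the single window of IFITM1 (ENSG00000185885), chr11:314057-314106, which had a signal value of 1.33 (q = 7.23e-06). The values of IFITM1 and IFITM2 therefore cannot be told apart as 2 genes. IFI6 had 1 window of 1.89 and BST2, which encodes tetherin, 1 of 1.45. IFITM3 and IFI27 were not listed.

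IFI44 (ENSG00000137965) held the strongest window of all 60 members. Its 4 windows were adjacent and formed 1 region of 200 bp, chr1:78650197-78650396, with signal values of 1.68, 2.32, 3.19 and 1.66 in order of position. The third was listed with a q-value of 0, which is below the numeric limit of the table, and exceeded 94.9% of the other listed genes. It lay 508 bp from the 5′ end. IFI44L (ENSG00000137959), its neighbour and relative on chromosome 1, had a single window at the start of the RNA, chr1:78620473-78620522, with a signal value of 2.57 (q = 4.21e-07). The DNA sensor gene IFI16 and the interacting partners IFI35 and NMI had no listed window. The group thus held the highest value with only 2 of 5 genes listed.

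Among nuclear body genes, SP100 (ENSG00000067066) had 1 window of 2.36 at chr2:230416243-230416292, 42 bp from the 5′ end, with a q-value of 4.46e-05. PML, which forms the scaffold of these bodies, had 9 windows with a strongest value of 1.60, and SP110 was not listed. The ADP-ribosyltransferase genes PARP9 and PARP14 and DTX3L, a ubiquitin ligase that works with PARP9, are neighbours on chromosome 3. Each of the 3 had 9 listed windows. PARP14 (ENSG00000173193) was the strongest, with values from 0.95 to 2.09. Its strongest window, chr3:122680840-122680889, had a q-value of 0.000343 and began a region of 4 windows at the start site with values of 2.09, 1.82, 1.70 and 1.93. DTX3L (ENSG00000163840) began in the same way, with 5 adjacent windows of 1.80, 1.45, 1.36, 1.91 and 1.76 from the start site. The strongest PARP9 window had a value of 1.62. The last 3 listed windows of both genes were weaker than those at the start site. They ran from 0.95 to 1.17 in PARP14 and from 0.94 to 1.12 in DTX3L. Both genes lack windows that their q-values require, so no fall in signal along the gene can be read from this.

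The chemokine and adhesion genes had the lowest listed share of the 14 role groups, with 1 of 5. No window was listed for CXCL9, CXCL10 and CXCL11, the ligands of CXCR3 that attract T cells, or for the adhesion gene VCAM1. Low RNA and lack of binding cannot be told apart for an unlisted gene. ICAM1 (ENSG00000090339), which encodes an adhesion receptor for leukocytes, had 5 windows with values of 1.17, 2.58, 1.45, 0.88 and 0.93 from the 5′ to the 3′ end. The strongest, chr19:10284594-10284643, had a q-value of 8.89e-09 and exceeded 75.6% of other listed genes. A window of the gene AC011511.2 on the opposite strand, with a value of 1.63, overlapped it.

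XAF1, an inducer of apoptosis, and the APOL members, which encode the trypanosome-killing serum protein APOL1 and relatives of it, were listed in full. XAF1 (ENSG00000132530) had 4 windows of 1.89, 1.89, 2.35 and 2.35, and both windows of 2.35 had the same q-value. APOL6 had 9 windows with a strongest value of 2.17, and 7 of them formed the longest region of any member, 350 bp. APOL1 had 7 windows with a strongest value of 1.96. APOL2 had 9 listed windows, none above 1.21 and 4 under 1, and the strongest of them was above only 1.1% of other genes. Its q-values require unlisted windows with smaller p-values, so a stronger window may be missing.

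The 3 metabolic enzymes were listed with 31 windows. SOD2, the superoxide dismutase of mitochondria, appeared under 2 identifiers, ENSG00000112096 and ENSG00000285441, whose 18 windows covered 12 positions. Its values ran from 1.26 to 2.7, and the strongest window, chr6:159726570-159726619 on the minus strand, had a q-value of 3.49e-09. That window lay inside the RefSeq gene interval but upstream of the SOD2 start site used above, at 159693241. At the 6 positions listed under both identifiers the values differed, as at chr6:159682520-159682569 with 1.34 and 1.79. The aminopeptidase gene LAP3 had 7 windows with a strongest value of 2.26, and IDO1, which encodes the enzyme that breaks down tryptophan, had 6 with 1.97. Of the large antiviral proteins, RNF213 (ENSG00000173821) was the strongest, with 9 windows from 0.85 to 2.89 among 580 tested, the most of any member. Its strongest window was chr17:80288617-80288666 with a q-value of 6.53e-05. SAMD9L had 1 window of 2.62 and SAMD9 had 1 of 2.02.

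**Figure D4:**
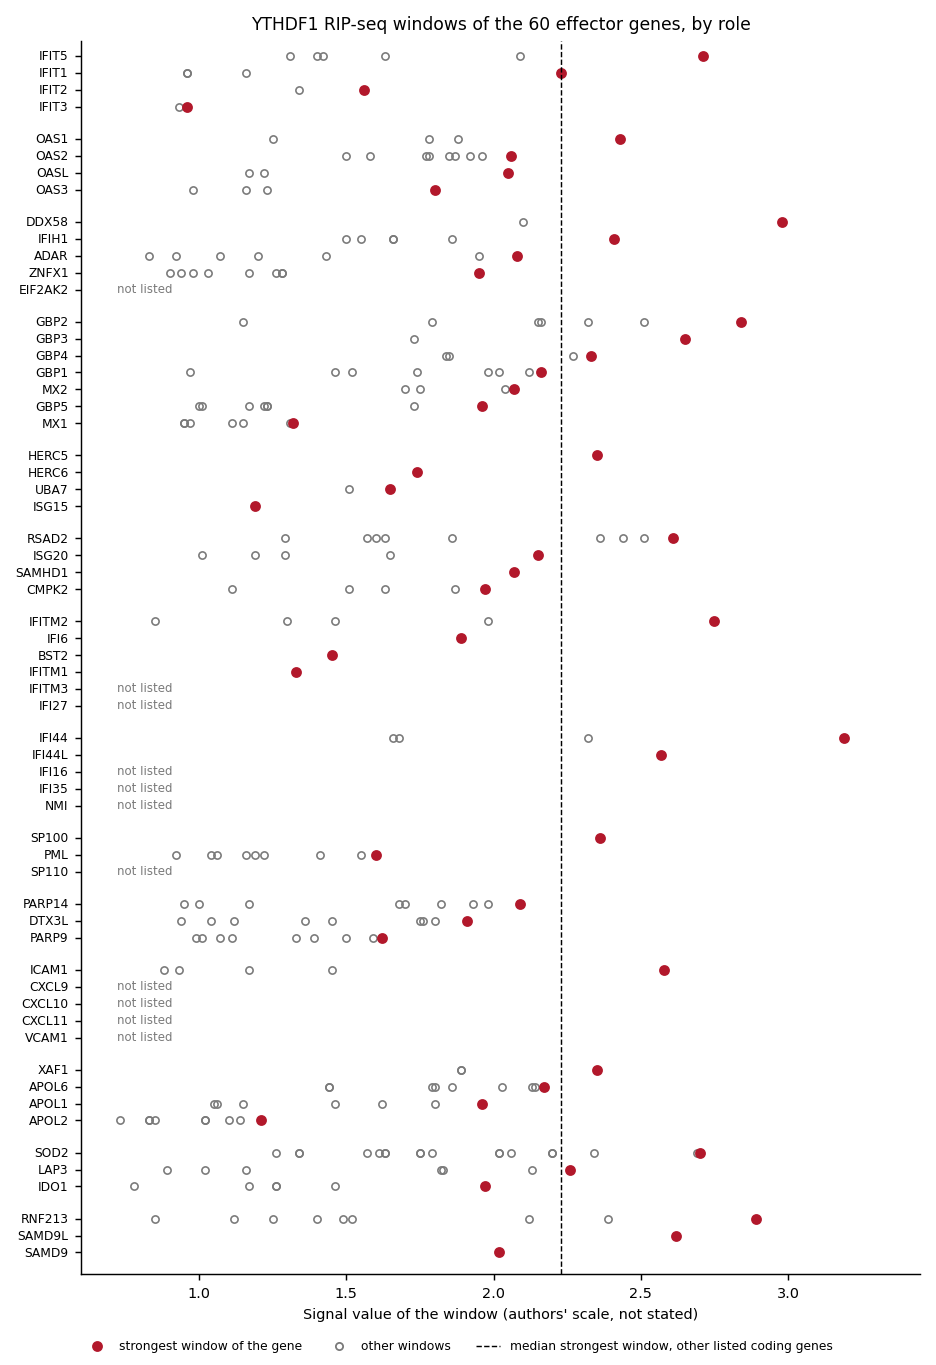
Signal values in the authors' table (x axis, scale not stated) of all windows of the 60 effector genes (y axis, grouped by role), with the strongest window of each gene filled and the dashed line at 2.23, the median strongest window of other listed coding genes. IFI44 reaches 3.19 and DDX58 2.98, IFIT3 lies lowest at 0.96, and 11 genes are not listed.

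Genes that act above the effectors or beside them were looked up from lists of their own. Of 31 other genes of the interferon response, 21 (67.7%) had a window, with 87 windows and a median strongest value of 2.10. Receptors, kinases and other signalling genes were listed in 8 of 12 cases, regulatory factors in 6 of 8 and antigen processing genes in 7 of 11. The kinase gene JAK2 had 9 windows with a strongest value of 3.34 and CIITA, the master regulator of MHC class II genes, had 9 with 3.21, both above the strongest effector gene, IFI44. PSMB9, a subunit of the immunoproteasome, had 9 windows with a strongest value of 2.82, and TAP1, a peptide transporter gene, had 1 window of 0.91. The difference between the effectors and these genes was not tested.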

How the data were processed

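RIP-seq of YTHDF1 was carried out with the Magna RIP kit, and strand-specific libraries depleted of ribosomal RNA were sequenced. The submitters' processing notes name STAR 2.7.3a and GRCh38, and the peak caller is not given in the sources used here. The authors deposited 1 table with a signal value per 50 bp window, used here as a score of unstated scale. The p-value and the q-value of each window are also the authors' deposited values. Of 26820 rows, 1 repeated row was dropped, and positions were counted from 1. The q-values were taken as adjusted within genes: in 2372 genes with 1 window, q divided by p was a whole number within 0.5% in 99.6%. Large quotients pass this limit whatever their value, so that share alone does not show the adjustment. The ratio of q to p gave the number of windows tested per gene, and the step was tested on simulated data.

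The 60 members, the role groups and the other lists were chosen with earlier results of these data known, so members were compared with other protein-coding genes by counts and medians only, with no test. The symbols of 6370 of 6674 listed coding genes (95.4%) matched the 20056 coding genes of RefSeq GRCh38.p14, and 97.9% of 23641 windows lay inside their RefSeq gene. All members are named by role, the strongest of each role with all windows or, above 4, with their range and strongest window. Depth per library is unknown, and the IP-YTHDF1 and Input replicates could not be compared. Alternatives were stricter limits, main chromosomes, shared windows left out, joined windows, other symbol matching, another q-value adjustment, similar families left out, the median window, genes with 9 windows left out and, chosen after seeing the data, windows outside the RefSeq gene left out. The work was done in Python 3.11.15 with NumPy 2.4.6, pandas 2.3.3, matplotlib 3.10.9 and SciPy 1.17.1.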

Additional observations from a re-analysis of the deposited data

How the results depend on the processing

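The effector share stayed above that of other coding genes in all 6 alternatives that gave both, and the effector median stayed below in all 7 that gave both. At a q-value of at most 0.001, 36 members (60%) and 21.1% of other genes had a window, with 106 member windows and a median strongest value of 2.42 in other genes (2.25 in members). Keeping signal values of 2 and above left 30 members (50%), 22% of other genes, medians of 2.35 and 2.41, and 59 member windows. Without windows shared between genes of a strand, other genes had 30% and a median of 2.19, and members 80% and 2.08. Matching by symbol alone gave 30.9% of other genes. Without families of similar genes, 29 of 39 members (74.4%) were listed. The median window per gene was 1.63 in members and 1.91 in others. Without genes at 9 windows, the medians were 2.12 and 2.19. The median window replaces the maximum of each gene by its median, and the other shifts come with fewer windows or genes being counted or matched. The other 26 of 43 alternative values moved within the intervals of the values reported, or, for counts, by less than 1.5 times. Adjusting q-values over the 310017 windows estimated for listed genes left all 49 members and 31.1% of other genes. Only windows already listed were adjusted again, and windows of unlisted genes did not enter. This alternative therefore says little about a wider correction.

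No paired analysis was possible because every window has 1 value for all 4 libraries together, so leaving out a replicate was not run either. The DRACH and GGAC shares of windows were not run, as the sequences of the windows were not at hand and RefSeq promoter sequences cover only the starts of genes. Without depth per library, low RNA and lack of binding cannot be told apart in unlisted genes. The scale of the signal value and the limit of 9 windows restrict what the strongest windows show.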
